A study of Homo sapiens with 23 samples.

Results

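The culture response that differs between 2 mammary epithelial cell lines was examined on 23 single-colour Illumina bead arrays. MCF10A is a human breast epithelial line that is immortal but forms no tumours, and its ErbB2-engineered derivative, MCF10A/ErbB2* in the labels, was set beside unmodified (WT) cells. The groups were ErbB2* cells in 3D culture (6 arrays), ErbB2* cells in 2D culture (6), WT cells in 3D (5) and WT cells in 2D (6), and all 23 arrays of the series entered. For each gene the difference between 3D and 2D in ErbB2* cells, minus the same difference in WT cells, was tested; this quantity is called the interaction. A positive interaction means that the ErbB2* response to 3D culture lay above the WT response. Of 10914 genes tested, 2367 passed.

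No treatment, time or age is given for any group, and every group carries the MCF10A background. The labels describe neither the ErbB2* construct nor the 3D medium, and 1 derivative line was compared with 1 parent line, so the engineered gene and other differences between the lines cannot be told apart. Whether the replicates of a group were grown as separate cultures is not stated, and the p-values therefore reflect only the spread among these arrays, which may be technical. Arrays measure bulk RNA, in which fewer cells of a kind and less RNA per cell cannot be told apart.

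ErbB2 belongs to the same family of receptor kinases as the EGF receptor. It has no known soluble ligand of its own, pairs with the other members of the family and feeds the ERK and PI3K pathways. Grown flat on plastic, MCF10A cells spread and divide. In reconstituted basement membrane they form acini, which stop dividing and polarise, and activation of ErbB2 in such acini is known to restart division and fill the lumen. The interaction is the part of the 3D response that the engineered line and its parent do not share.

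On 22 arrays the mean probe signal was 333.6 to 581.6 units, and the share of probes detected was 30.9% to 34.6%. The remaining array, WT 3D replicate 5, had a mean signal of 150.6 and 19.1% detected, and its cell line field names ErbB2* while its title names WT. Its scanner column and its deposited log2 column differed in rank order (rank correlation 0.503, against 1 on the others). It was therefore left out of the scanner values and entered only through its deposited column, in a separate fit of 23 arrays. In that column it lay nearest WT 3D, at a root mean square distance of 0.14 log2 units, against 0.328 from ErbB2* 3D, 0.402 from ErbB2* 2D and 0.341 from WT 2D. The 6 WT 2D arrays fell into 2 sets, replicates 1, 5 and 6 and replicates 2, 3 and 4, and described calls and counts that changed without either set are given with their values. Of 11 markers of basal mammary epithelium 7 had a named probe (KRT5, KRT14, EGFR, CDH1, CDH3, ITGB4 and VIM), and each was detected in all 4 groups. Luminal markers were divided. ESR1, PGR and KRT19 were not detected on any of the 22 arrays, whereas KRT8, KRT18, FOXA1 and GATA3 were detected in all 4 groups.

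The engineered gene did not pass the interaction test. ERBB2 averaged 8.09 ± 0.253 log2 units in ErbB2* 3D (SD, n = 6) and 8.73 ± 0.118 in ErbB2* 2D (SD, n = 6), against 8.43 ± 0.257 in WT 3D (SD, n = 4) and 8.73 ± 0.136 in WT 2D (SD, n = 6). Its interaction was -0.34 (SE 0.171, adjusted p = 0.171, limma). The labels do not say whether this probe reads the engineered sequence, and its level is no check on them.

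The 3D response differed between the lines for 21.7% of the genes. The ErbB2* response lay above the WT response in 1073 genes (9.83%) and below it in 1294 (11.9%), and 775 (7.1%) differed by at least 2-fold. Each line on its own responded broadly. In ErbB2* cells 3965 genes (36.3%) differed between the cultures, 1863 (17.1%) higher and 2102 (19.3%) lower in 3D than in 2D. In WT cells 3695 (33.9%) differed, 1870 (17.1%) higher and 1825 (16.7%) lower. The lines differed from each other in 3037 genes (27.8%) in 3D and 2542 (23.3%) in 2D. Across genes, which are not independent replicates, the log2 responses of the lines had a Pearson correlation of 0.426 and a Spearman correlation of 0.366. Of 1928 genes that passed in both lines, 1632 moved in the same direction and 296 in opposite directions. The test is a linear model of the 4 groups on 22 arrays (limma), with Benjamini-Hochberg adjustment over all genes tested and a threshold of 0.05.

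By their direction in each line, the 2367 genes fell into 6 classes. In 296 genes (2.71% of those tested) the lines responded in opposite directions. In 847 genes the response passed in ErbB2* cells only, and in 789 in WT cells only. Both lines moved the same way but ErbB2* cells by more in 135 genes, and WT cells by more in 189 genes. In the remaining 111 neither response passed by itself. With WT 3D replicate 5 added through the deposited values, 2758 genes passed and 379 were opposite, and 276 of the 296 genes were still opposite. The split between genes above and below depended on the scaling: 522 lay above and 1402 below under median scaling, against 1073 and 1294 under quantile normalisation. Median scaling moved the median interaction of all genes to -0.17 and the median ErbB2* response to -0.14 (log2), so counts of genes above and below are relative to the scaling.

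**Figure D1:**
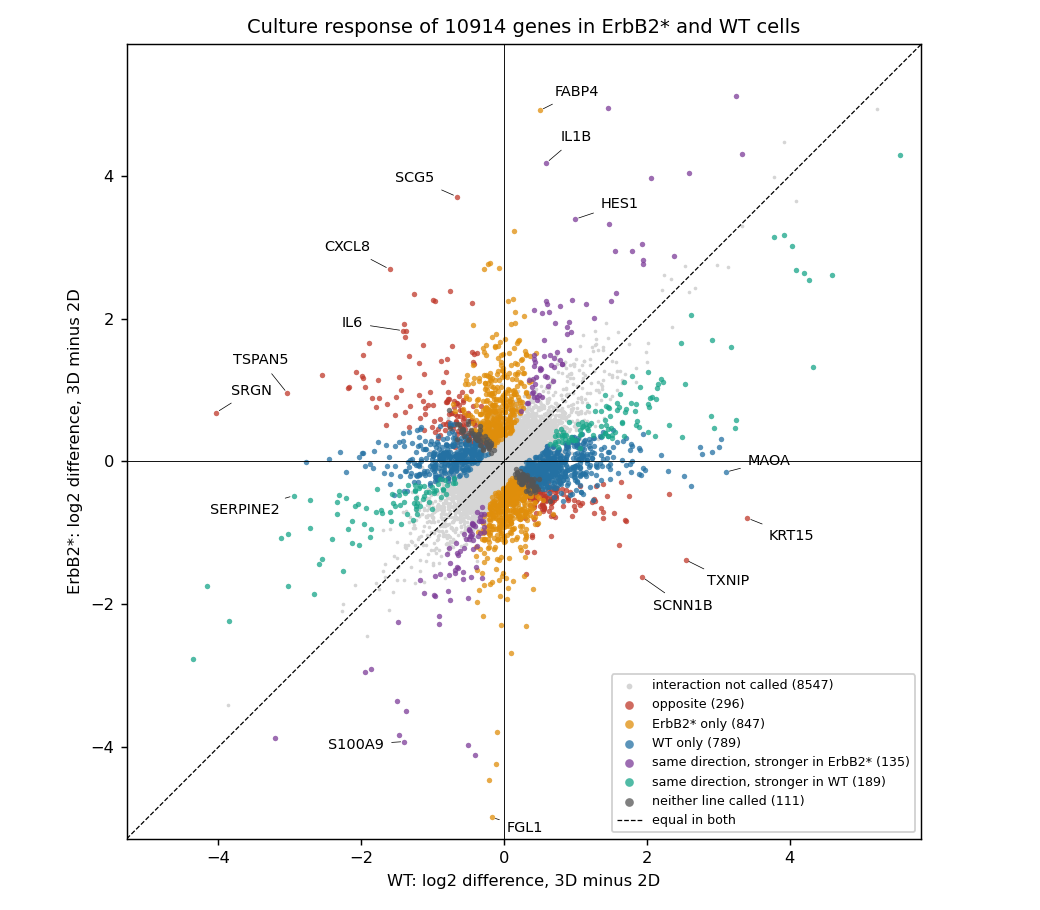
Log2 difference between 3D and 2D in ErbB2* cells (vertical) against the same in WT cells (horizontal) for 10914 genes, 1 point a gene, coloured by class. Opposite genes lie at the upper left (150) and lower right (146), ErbB2*-only genes along the vertical axis and WT-only genes along the horizontal axis.

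Changes not given as folds are log2 differences between 3D and 2D. Opposite genes are described first, beginning with those higher in 3D in ErbB2* cells and lower in 3D in WT cells. The largest interaction among them belonged to SRGN, which encodes serglycin, a proteoglycan core of secretory granules. On the log2 scale SRGN lay between 11.78 and 12.17 (median 11.97) in ErbB2* 3D and between 11.19 and 11.40 (median 11.32) in ErbB2* 2D, against 6.44, 5.91, 6.20 and 6.36 in WT 3D and between 10.18 and 10.36 (median 10.26) in WT 2D. The arrays of the 4 groups did not overlap, and WT 3D stood far below the rest. SRGN rose 1.61-fold in ErbB2* cells and fell 16.3-fold in WT cells (interaction 4.71, SE 0.131, adjusted p = 1.01e-17).

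SCG5, a chaperone of neuroendocrine secretory granules, came next. SCG5 lay between 9.13 and 9.52 (median 9.21) in ErbB2* 3D and between 4.99 and 6.13 (median 5.56) in ErbB2* 2D, against 8.99, 8.89, 8.90 and 8.90 in WT 3D and between 9.48 and 9.75 (median 9.57) in WT 2D. In this gene ErbB2* 2D stood apart at a low level, and the other 3 groups lay close together. SCG5 rose 13.1-fold in ErbB2* cells and fell 1.58-fold in WT cells (interaction 4.37, SE 0.199, adjusted p = 1.01e-13).

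The chemokine gene CXCL8, whose protein draws neutrophils, showed a further pattern. CXCL8 lay between 12.47 and 13.04 (median 12.68) in ErbB2* 3D and between 9.69 and 10.42 (median 10.01) in ErbB2* 2D, against 8.34, 8.33, 8.06 and 8.51 in WT 3D and between 9.62 and 10.10 (median 9.91) in WT 2D. The 2D arrays of the lines overlapped, whereas in 3D every ErbB2* array lay above every WT array. CXCL8 rose 6.46-fold in ErbB2* cells and fell 3.04-fold in WT cells (interaction 4.29, SE 0.179, adjusted p = 2.71e-14). In the deposited log2 values WT 3D replicate 5 had 9.51 for CXCL8, above the 8.54 to 8.80 of the other WT 3D arrays and just below the 9.64 to 10.06 of WT 2D. With that array the deposited interaction was still 3.58.

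Another chemokine of the same family, CXCL1, had an interaction of 3.59, with log2 changes of 2.34 in ErbB2* cells and -1.26 in WT cells. In WT 3D, 2 of the 4 arrays detected it. In the deposited values WT 3D replicate 5 lay nearer WT 2D than WT 3D for this gene too. TSPAN5, a tetraspanin that helps route the protease ADAM10, changed by 0.96 in ErbB2* cells and -3.03 in WT cells. ADAM19, a membrane metalloprotease, changed by 1.21 in ErbB2* and -2.54 in WT cells. For both genes the lines changed places: ErbB2* arrays were all lower than WT arrays in 2D and all higher in 3D.

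The opposite genes of the other sign were lower in 3D in ErbB2* cells and higher in 3D in WT cells. KRT15, a keratin of basal epithelial cells, led them. KRT15 lay between 5.69 and 6.62 (median 5.80) in ErbB2* 3D and between 6.27 and 7.09 (median 6.76) in ErbB2* 2D, against 9.82, 10.01, 9.86 and 9.85 in WT 3D and between 5.88 and 6.94 (median 6.60) in WT 2D. WT 3D stood apart at a high level, and the ErbB2* groups overlapped each other through 1 array or more. KRT15 fell 1.73-fold in ErbB2* cells and rose 10.6-fold in WT cells (interaction -4.20, SE 0.283, adjusted p = 1.06e-10).

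TXNIP, an inhibitor of thioredoxin and of glucose uptake whose mRNA follows glucose supply, came second. TXNIP lay between 7.63 and 8.03 (median 7.78) in ErbB2* 3D and between 9.04 and 9.35 (median 9.20) in ErbB2* 2D, against 10.44, 10.04, 10.23 and 10.32 in WT 3D and between 7.31 and 8.37 (median 7.64) in WT 2D. No 3D array overlapped a 2D array of its own line, and the lines lay in reverse order in the 2 cultures. TXNIP fell 2.6-fold in ErbB2* cells and rose 5.83-fold in WT cells (interaction -3.92, SE 0.192, adjusted p = 4.06e-13).

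Genes of 2 subunits of the epithelial sodium channel followed. SCNN1B, the beta subunit, changed by -1.62 in ErbB2* cells and 1.93 in WT cells, and SCNN1G, the gamma subunit, by -1.18 in ErbB2* and 1.62 in WT cells. For both genes every 3D array was apart from the 2D arrays of its line. VAV3 changed by -0.46 in ErbB2* and 2.32 in WT cells, and CKMT1B, a mitochondrial creatine kinase, by -0.83 in ErbB2* and 1.71 in WT cells. CKMT1B has a near-identical copy, CKMT1A, and its value is uncertain for that reason. In VAV3 and CKMT1B the 3D and 2D arrays of ErbB2* cells overlapped.

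**Figure D2:**
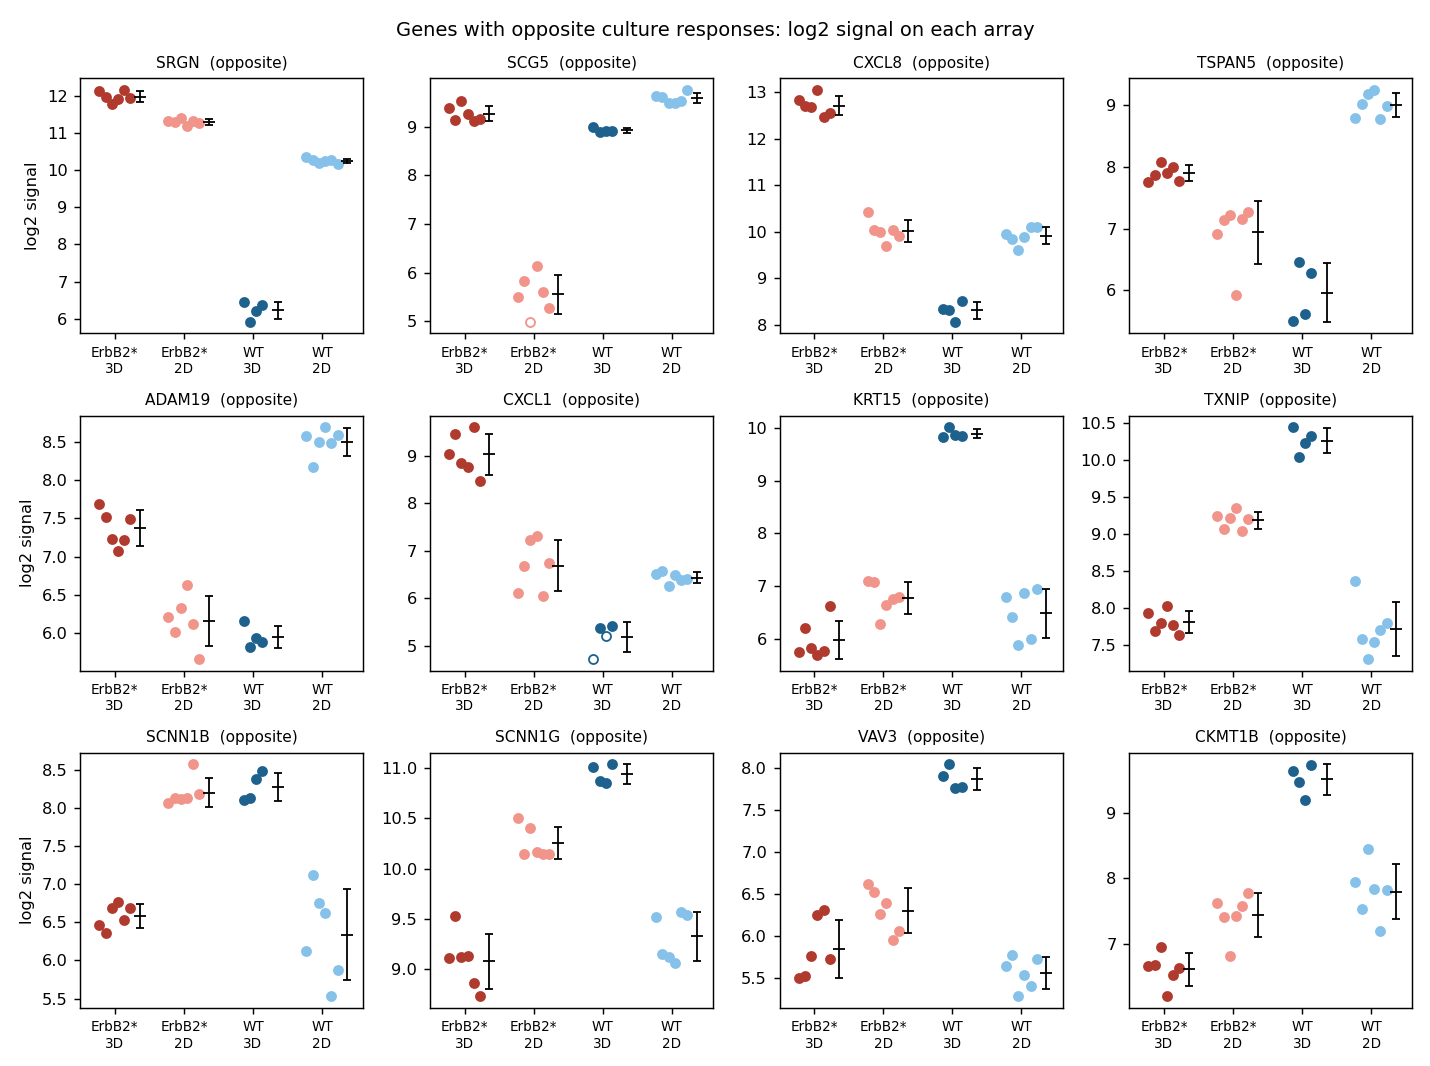
Log2 signal on each of the 22 arrays for the 12 genes with the largest opposite responses, 6 of each sign, in the order ErbB2* 3D, ErbB2* 2D, WT 3D and WT 2D. Points are arrays (open where the probe was not detected), and bars give the mean and SD; WT 3D is the lowest group for SRGN and the highest for KRT15.

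Over the whole opposite class, the median log2 response of the 150 genes above was 0.68 in ErbB2* cells and -0.70 in WT cells. For the 146 genes below, it was -0.49 in ErbB2* cells and 0.56 in WT cells. The 3D arrays were apart from the 2D arrays in both lines in 989 genes (9.06% of those tested) and in opposite directions in 135 (1.24%); 124 of the 296 opposite genes were apart in both lines. Without WT 2D replicates 1, 5 and 6 the opposite class held 553 genes, and without replicates 2, 3 and 4 it held 250.

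Several of the opposite genes are targets of NF-kB, the transcription factor of inflammatory signalling. Described here are 4 chemokine and cytokine genes from all those named, of which CXCL2 was not opposite but called in ErbB2* cells only. Their promoters are shown because the probe signals of these genes rose together in ErbB2* cells. The letters are the 250 bases before the RefSeq start (GRCh38.p14), 5′ to 3′ on the strand of the gene. Capitals mark 2 motifs that were searched on both strands, GGNNTTTCC (the core of many NF-kB sites) and TGANTCA (the AP-1 core); no match of one overlapped the other.
CXCL8, chr4:73740319-73740568, plus strand: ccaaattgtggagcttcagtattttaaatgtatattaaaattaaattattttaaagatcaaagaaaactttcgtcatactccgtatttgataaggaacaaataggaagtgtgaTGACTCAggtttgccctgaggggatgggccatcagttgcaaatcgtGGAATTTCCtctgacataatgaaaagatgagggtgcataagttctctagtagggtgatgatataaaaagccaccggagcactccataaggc
CXCL1, chr4:73869143-73869392, plus strand: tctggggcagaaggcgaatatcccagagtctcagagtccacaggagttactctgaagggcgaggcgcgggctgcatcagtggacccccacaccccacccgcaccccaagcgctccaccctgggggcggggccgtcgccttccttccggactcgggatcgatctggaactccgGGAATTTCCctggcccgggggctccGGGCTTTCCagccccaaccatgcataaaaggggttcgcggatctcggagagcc
CXCL2, chr4:74099196-74099445, minus strand: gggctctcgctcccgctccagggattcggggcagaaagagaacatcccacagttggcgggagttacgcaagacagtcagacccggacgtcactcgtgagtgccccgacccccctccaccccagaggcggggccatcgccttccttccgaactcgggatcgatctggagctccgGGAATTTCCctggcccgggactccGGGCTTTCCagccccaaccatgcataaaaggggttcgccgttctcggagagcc
IL6, chr7:22726950-22727199, plus strand: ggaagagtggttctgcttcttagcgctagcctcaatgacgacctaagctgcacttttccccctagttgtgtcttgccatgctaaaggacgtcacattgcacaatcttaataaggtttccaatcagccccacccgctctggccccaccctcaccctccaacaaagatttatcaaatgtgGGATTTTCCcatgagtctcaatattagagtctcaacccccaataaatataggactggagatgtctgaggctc

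CXCL8 held 1 match to GGNNTTTCC, 91 to 83 bases before the start, and 1 to TGANTCA, 137 to 131 bases before it. CXCL1 and CXCL2 each held 2 matches to GGNNTTTCC, and IL6 held 1, 72 to 64 bases before the start. GGNNTTTCC occurred in 6.69% and TGANTCA in 8.06% of all 27305 genes with a listed promoter, and in 8.6% and 6.3% of the 8947 tested genes with one. The shares were 8.93% and 9.82% for opposite genes above, and 13.6% and 9.32% for opposite genes below, all without a test. These matches are descriptions of the letters, and the motifs were picked after the values were seen.

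CXCL2, a chemokine like CXCL1, fell in the class called in ErbB2* cells only. CXCL2 lay between 9.10 and 10.21 (median 10) in ErbB2* 3D and between 7.02 and 7.37 (median 7.21) in ErbB2* 2D, against 5.77, 4.91, 4.95 and 5.67 in WT 3D and between 5.37 and 5.88 (median 5.59) in WT 2D. Its ErbB2* 3D arrays all lay above its ErbB2* 2D arrays, while the WT groups overlapped near background. The ErbB2* response was 2.69 (SE 0.166, adjusted p = 8.05e-12, limma) and the WT response -0.28 (adjusted p = 0.259). IL6, a cytokine gene, was at background on each WT 3D array and detected on all others. It rose 3.56-fold in ErbB2* cells, was at least 1.86-fold lower in 3D than in 2D in WT cells, and was at least 23.4-fold higher in ErbB2* 3D than in WT 3D.

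Gene lists are counted over the members tested; the others had no named probe or too few detections, and a gene detected in 1 group only passed the filter through that group. Of 32 listed NF-kB targets and cytokines 21 were tested. The ErbB2* response lay above in 13 and below in 5, a share of 85.7% against 21.7% of all genes tested. In ErbB2* cells 13 rose and 5 fell, in WT cells 6 rose and 7 fell, and the median interaction was 1.20, against -0.02 over all genes. IL1B, the gene of interleukin 1 beta, rose in both lines but by more in ErbB2* cells. IL1B lay between 12.24 and 12.80 (median 12.53) in ErbB2* 3D and between 8.09 and 8.67 (median 8.21) in ErbB2* 2D, against 8.64, 8.38, 8.64 and 8.59 in WT 3D and between 7.83 and 8.17 (median 7.96) in WT 2D. ErbB2* 3D stood apart, and the other 3 groups lay within a narrow band. IL1B rose 18.1-fold in ErbB2* cells and 1.51-fold in WT cells (interaction 3.59, SE 0.161, adjusted p = 7.98e-14). Of the listed genes tested, 16 had a promoter in the table and 12 of these held GGNNTTTCC; the list was assembled from known targets, so this share is no independent observation.

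Output genes of the ERK pathway rose in ErbB2* cells and fell in WT cells more often than the reverse. Of 24 tested, 14 lay above and 1 below (62.5%), and 8 were opposite. In ErbB2* cells 13 rose and 4 fell, and in WT cells 2 rose and 12 fell. IER3, an early response gene that also protects from apoptosis, rose 3.16-fold in ErbB2* cells and fell 3.7-fold in WT cells (interaction 3.55, SE 0.135, adjusted p = 4.24e-15). PHLDA1 changed by 1.41 in ErbB2* cells and -0.88 in WT cells, and the ephrin receptor EPHA2 by 0.51 in ErbB2* and -1.65 in WT cells. The exception was SPRY1, a feedback inhibitor of receptor tyrosine kinase signalling, which fell in ErbB2* cells (-2.30) and gave 0.30 in WT cells (adjusted p = 0.316).

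Of 18 AP-1 subunits and other immediate early factors tested, 8 lay above and 0 below (44.4%). In ErbB2* cells 12 rose and 0 fell, and in WT cells 8 rose and 4 fell; 4 were opposite. Among the opposite genes, the AP-1 subunit genes JUN (0.78 in ErbB2* cells, -1.31 in WT cells) and FOSL1 (0.61 in ErbB2* and -1.18 in WT cells) rose in ErbB2* cells and fell in WT cells, as did IER5 (0.41 in ErbB2* and -0.97 in WT cells). KLF2, a zinc finger factor, had the largest positive interaction of the genes called in ErbB2* cells only and detected in all 4 groups. KLF2 lay between 7.67 and 9.20 (median 8.99) in ErbB2* 3D and between 5.47 and 6.22 (median 6.13) in ErbB2* 2D, against 6.17, 6.18, 5.88 and 5.96 in WT 3D and between 5.71 and 6.78 (median 6.41) in WT 2D. ErbB2* 3D stood apart from the other 3 groups, which overlapped. KLF2 rose 6.83-fold in ErbB2* cells, and its WT response was -0.23 (interaction 3.00, SE 0.326, adjusted p = 2.73e-07).

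Ligands of the ErbB family and its inhibitor were part of the interaction. TGFA, which encodes a ligand of the EGF receptor, was opposite (0.55 in ErbB2* cells, -0.78 in WT cells). HBEGF, another such ligand, rose by 2.18 in ErbB2* and 0.79 in WT cells, and the ligand gene EREG rose by 1.26 in ErbB2* cells and gave -0.01 in WT cells (adjusted p = 0.97). ERRFI1, a cytoplasmic inhibitor of ErbB kinases, gave 0.02 in ErbB2* cells (adjusted p = 0.862) and rose by 1.65 in WT cells. In all, 3 of 10 members tested lay above and 2 below (50%, against 21.7% of all genes).

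Of 20 targets of YAP and TEAD, which respond to spreading and tension, 10 lay above and 1 below (55.0%), with 7 higher and 3 lower in 3D in ErbB2* cells, against 2 higher and 11 lower in WT cells. F3, the gene of tissue factor, changed by 1.20 in ErbB2* cells and -1.99 in WT cells, and the matricellular gene CCN2 by 0.65 in ErbB2* and -1.53 in WT cells. CCN1, its relative, rose by 2.04 in ErbB2* cells and gave 0.28 in WT cells (adjusted p = 0.102). Of 22 TGF-beta targets 12 lay above and 1 below (59.1%), among them THBS1, the gene of thrombospondin 1 (0.89 in ErbB2* and -1.75 in WT cells). Of 23 contractile actin genes 12 lay above and 0 below (52.2%), but 6 and 0 under median scaling. TAGLN, an actin-binding protein of contractile cells, fell in both lines and by more in WT cells (-1.74 in ErbB2* and -4.15 in WT cells), where 2 of the 4 WT 3D arrays detected it.

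Of 16 EMT factors and mesenchymal genes, 10 lay above and 1 below (68.8%). In ErbB2* cells 5 rose and 4 fell in 3D, and in WT cells 3 rose and 7 fell. The median response was 0.0024 in ErbB2* cells and -0.16 in WT cells, so the list as a whole did not rise in ErbB2* cells. SNAI2, a transcription factor that represses E-cadherin, was called in ErbB2* cells only. SNAI2 lay between 11.41 and 12.28 (median 11.95) in ErbB2* 3D and between 9.05 and 9.43 (median 9.15) in ErbB2* 2D, against 11.37, 11.52, 11.42 and 11.50 in WT 3D and between 11.20 and 11.80 (median 11.54) in WT 2D. Here ErbB2* 2D was the group apart, and the other 3 lay together. SNAI2 rose 6.54-fold in ErbB2* cells, and its WT response was -0.07 (interaction 2.78, SE 0.185, adjusted p = 8.82e-11). POSTN, a matrix protein gene, was by its brightest probe below background on every ErbB2* 2D array and at least 22.7-fold higher in ErbB2* 3D, and it rose 2.73-fold in WT cells. S100A4, a calcium-binding protein of motile cells, gave -0.15 (log2) in ErbB2* cells (adjusted p = 0.125) and fell 4.65-fold in WT cells. LOX, a collagen cross-linking enzyme, was the member below (-0.29 in ErbB2* and 1.64 in WT cells). Of 5 fibroblast markers tested, 3 lay above (FAP, LUM and DCN) and 1 below (COL1A1), a share of 80% against 21.7% of all genes. The brightest LUM probe was detected in ErbB2* 3D only and passed the filter through that group. The summed level of the list was 13.26 to 13.49 (log2) in ErbB2* 3D, 12.51 to 12.64 in ErbB2* 2D, 11.57 to 11.74 in WT 3D and 11.88 to 11.98 in WT 2D. It was mostly DCN, which alone lay between 13.19 and 13.42 in ErbB2* 3D and between 11.30 and 11.50 in WT 3D. COL3A1 was not detected on any of the 22 arrays, and the part of such cells in the result was not tested.

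Proteases and their inhibitors had 5 of 16 members above and 1 below (37.5%). PLAU, the urokinase gene, was opposite (1.17 in ErbB2* cells, -1.98 in WT cells). SERPINE2, a secreted inhibitor of thrombin and urokinase, fell in both lines. SERPINE2 lay between 13.32 and 13.63 (median 13.40) in ErbB2* 3D and between 13.67 and 14.20 (median 13.89) in ErbB2* 2D, against 10.90, 10.92, 10.94 and 10.98 in WT 3D and between 13.76 and 13.97 (median 13.90) in WT 2D. In WT cells the 3D arrays lay far below the 2D arrays, while in ErbB2* cells the gap was narrow and without overlap. SERPINE2 fell 1.39-fold in ErbB2* cells and 7.71-fold in WT cells (interaction 2.47, SE 0.124, adjusted p = 6.14e-13).

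Of 11 desmosome genes, which rivet epithelial cells together, 8 lay below and 0 above (72.7%). In ErbB2* cells 2 rose and 4 fell in 3D, and in WT cells 7 rose and 1 fell. DSP, the gene of desmoplakin, gave -0.04 in ErbB2* cells (adjusted p = 0.881) and rose by 1.48 in WT cells. The cadherin gene DSC3 gave 0.06 in ErbB2* cells and rose by 1.52 in WT cells, and the plaque gene PKP2 was opposite (-0.57 in ErbB2* and 0.68 in WT cells). DSG3 rose in both lines (0.81 in ErbB2* and 2.02 in WT cells), and another DSC3 probe gave an interaction of -0.34.

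CDH1, the gene of the adherens junction protein E-cadherin, was opposite. CDH1 lay between 6.23 and 6.79 (median 6.67) in ErbB2* 3D and between 7.05 and 7.63 (median 7.28) in ErbB2* 2D, against 10.03, 9.92, 9.95 and 9.67 in WT 3D and between 8.19 and 8.51 (median 8.37) in WT 2D. No group overlapped another, with ErbB2* 3D lowest and WT 3D highest. CDH1 fell 1.64-fold in ErbB2* cells and rose 2.9-fold in WT cells (interaction -2.25, SE 0.161, adjusted p = 3.01e-10). The tight junction gene CLDN7 took the same directions (-0.52 in ErbB2* and 1.26 in WT cells). CLDN1 and EPCAM were the 2 junction genes above, with CLDN1 at 0.29 in ErbB2* cells (adjusted p = 0.129) and -1.41 in WT cells, and EPCAM at -1.08 in ErbB2* and -2.41 in WT cells; another EPCAM probe gave an interaction of 0.31. Junction and polarity genes as a list had 6 of 17 below and 2 above (47.1%, against 21.7% of all genes).

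Basement membrane and keratin genes divided between the directions. LAD1, which encodes ladinin of the anchoring filaments, gave 0.13 in ErbB2* cells (adjusted p = 0.299) and rose by 1.46 in WT cells. P3H2, a collagen prolyl hydroxylase, rose in both lines (0.42 in ErbB2* and 2.01 in WT cells). LAMB3, a laminin 332 chain, rose by 1.5 in ErbB2* cells, but its other probes gave interactions between -0.63 and 0.32, and the call was lost with the mean over probes (0.48, adjusted p = 0.109). Of 21 such genes 3 lay above and 5 below (38.1%, against 21.7% of all genes), and 15 rose in ErbB2* cells and 13 in WT cells. Among 18 keratin and cornification genes 5 lay above and 7 below (66.7%).

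SERPINB3 and SERPINB4, protease inhibitors of squamous epithelium, and FGL1, a secreted fibrinogen-like protein, were detected by their brightest probes in 1 group only, ErbB2* 2D. FGL1 lay between 9.57 and 9.99 (median 9.59) there and was below background on every array of the other 3 groups. It was at least 22.4-fold lower in ErbB2* 3D than in ErbB2* 2D, SERPINB3 at least 15.3-fold and SERPINB4 at least 12.4-fold. SERPINB3 and SERPINB4 are near-identical and their separate values are uncertain. Other FGL1 probes gave interactions between -4.13 and 0.29. S100A9 and S100A8, which together form calprotectin, were brightest in the same group. S100A9 lay between 10.29 and 10.86 (median 10.49) in ErbB2* 3D and between 14.36 and 14.68 (median 14.45) in ErbB2* 2D, against 10.09, 10.29, 10.31 and 10.31 in WT 3D and between 11.51 and 11.77 (median 11.65) in WT 2D. ErbB2* 2D stood well above WT 2D, and the 3D arrays of the lines lay close together. S100A9 fell 15.1-fold in ErbB2* cells and 2.63-fold in WT cells (interaction -2.53, SE 0.142, adjusted p = 4.51e-12), and S100A8 fell 14.2-fold in ErbB2* and 2.78-fold in WT cells.

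Genes linked to quiescence and to FOXO factors, which act when PI3K signalling is low, had 14 of 25 members below and 4 above (72.0%). In ErbB2* cells 9 rose and 6 fell, and in WT cells 16 rose and 2 fell. Besides TXNIP, the transcriptional regulators CITED2 and KLF9 gave -0.16 and 0.16 in ErbB2* cells (adjusted p = 0.366 for CITED2, adjusted p = 0.268 for KLF9) and rose by 1.6 and 1.91 in WT cells. Of 15 glucocorticoid-responsive genes 9 lay below and 3 above (80%); KLF9 and ERRFI1 are in this list too. CEBPD, a transcription factor of the acute phase, was opposite (-0.57 in ErbB2* and 1.24 in WT cells). SERPINA3, the antichymotrypsin gene, fell in both lines (-3.49 in ErbB2* and -1.37 in WT cells).

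MAOA, the mitochondrial enzyme that breaks down monoamines, had the largest interaction, in size, of the genes called in WT cells only and detected in all 4 groups. MAOA lay between 10.75 and 11.32 (median 11.04) in ErbB2* 3D and between 11.07 and 11.34 (median 11.21) in ErbB2* 2D, against 12.23, 12.25, 12.25 and 12.14 in WT 3D and between 8.77 and 9.42 (median 9.16) in WT 2D. The ErbB2* groups overlapped at a level between those of WT 3D and WT 2D. Its ErbB2* response was -0.15, and MAOA rose 8.61-fold in WT cells (interaction -3.25, SE 0.168, adjusted p = 9.76e-13). SGPP2, a sphingosine phosphate phosphatase, rose by 2.62 in WT cells, and SRGAP3, a GTPase-activating protein, by 3.01, although other SRGAP3 probes gave interactions between -1.32 and 0.08. COL8A1, a short-chain collagen, and ITGB2, an integrin subunit of leukocytes, gave -0.01 and 0.13 in ErbB2* cells and fell in WT cells (-2.77 and -2.29, log2). The small RNA gene SNAR-A1 fell in WT cells (-2.44), and it belongs to a family of near-identical copies. ACOT11, an acyl-CoA thioesterase, and ABCA12, a lipid transporter of keratinocytes, rose in both lines but by more in WT cells (0.58 in ErbB2* and 3.25 in WT cells for ACOT11, 0.47 in ErbB2* and 2.94 in WT cells for ABCA12).

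Further genes were called in ErbB2* cells only. VASN, a membrane protein that binds TGF-beta, rose 6.83-fold in ErbB2* cells and gave -0.19 in WT cells. GAS1, a growth arrest gene, and GPM6B, a membrane glycoprotein, fell in ErbB2* cells (-2.69 and -1.89, log2) and gave 0.10 and -0.06 in WT cells. FABP4, a fatty acid carrier of adipocytes and macrophages, lay between 9.99 and 10.83 (median 10.43) in ErbB2* 3D and between 4.80 and 6.09 (median 5.55) in ErbB2* 2D. It was detected on 1 WT 3D array and no WT 2D array, so its WT response has no measured size; its ErbB2* response was 4.92 (SE 0.195, adjusted p = 2.04e-15, limma). CIDEC, a lipid droplet protein, rose 3.44-fold in ErbB2* cells by its brightest probe, which no WT array detected; over its 2 probes it was detected on 2 WT 3D arrays and 0 WT 2D arrays. Adipocyte markers ADIPOQ, PLIN1 and CIDEA were not detected on any of the 22 arrays, while 3 of 4 tested markers lay above (75%, against 21.7% of all genes). Of these 3, FABP4 and CIDEC passed the filter through the ErbB2* arrays, where they were high, so the count is no independent observation. The summed level of the list was 11.60 to 11.85 (log2) in ErbB2* 3D, 10.57 to 10.91 in ErbB2* 2D, 8.33 to 8.54 in WT 3D and 8.74 to 9.12 in WT 2D. PPARG, the adipocyte transcription factor and 1 of the 3, had an interaction of 0.55 and lost its call under median scaling (adjusted p = 0.283), in the deposited values with WT 3D replicate 5 (adjusted p = 0.0962) and without WT 2D replicates 1, 5 and 6 (adjusted p = 0.0534). The part of such cells was not tested.

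**Figure D3:**
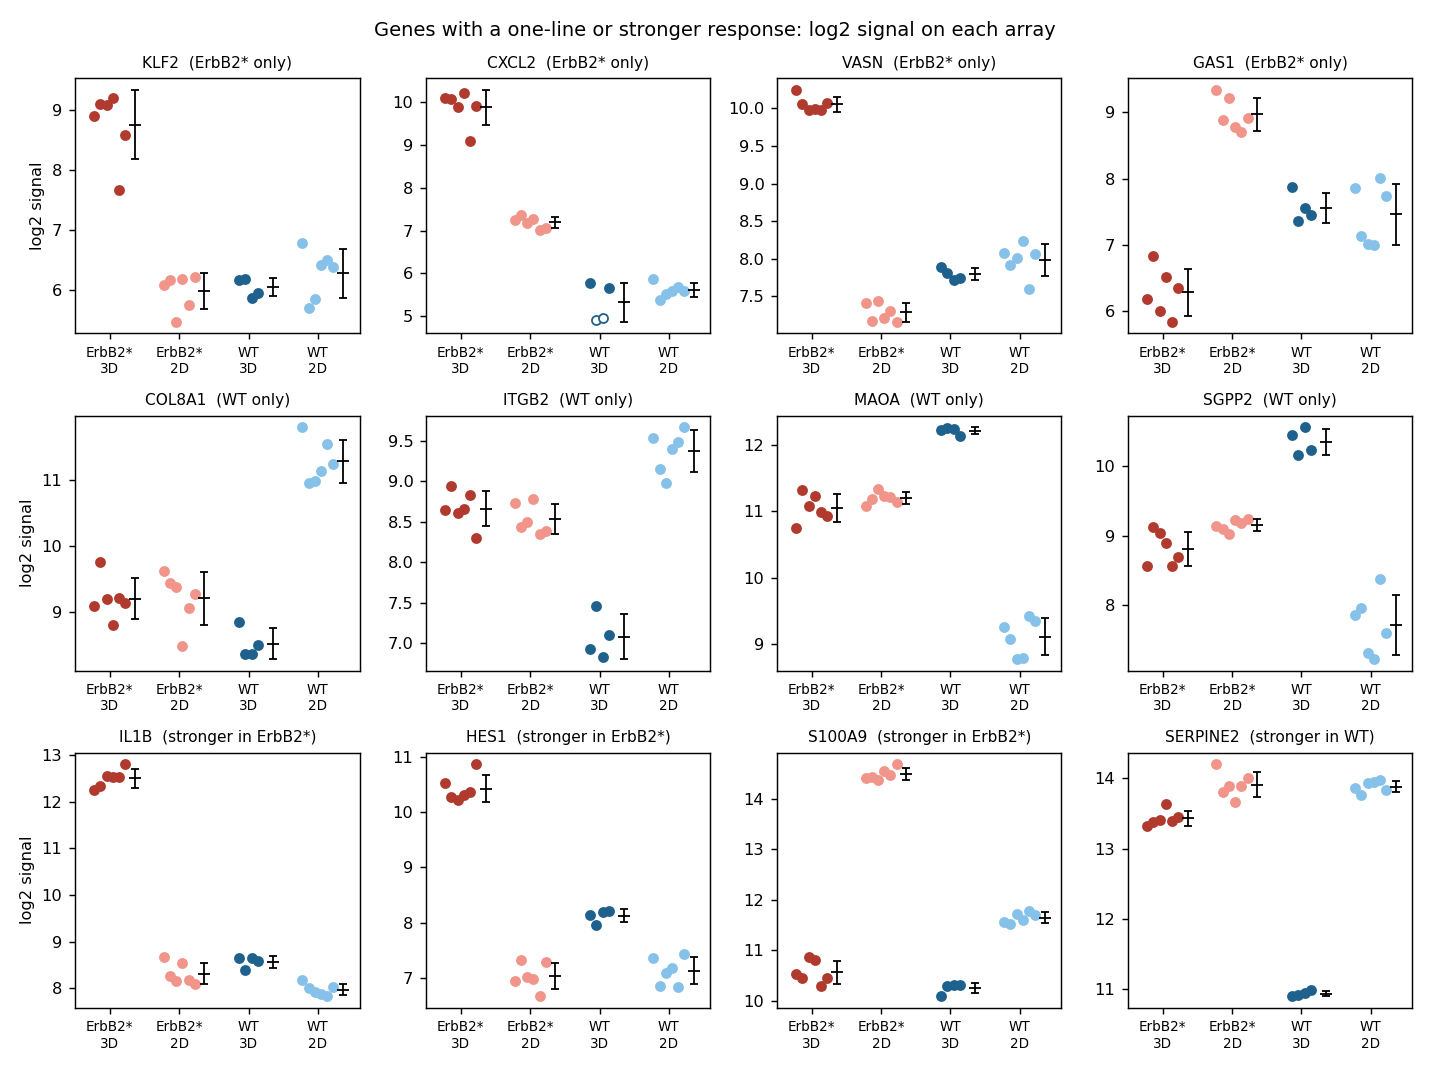
Log2 signal on each of the 22 arrays for 12 genes that were called in 1 line only or moved the same way by different amounts, in the order ErbB2* 3D, ErbB2* 2D, WT 3D and WT 2D. Points are arrays (open where the probe was not detected), and bars give the mean and SD; KLF2, CXCL2, IL1B and HES1 are highest in ErbB2* 3D, and S100A9 in ErbB2* 2D.

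Notch pathway genes had 10 of 12 members called, 4 above and 6 below (83.3%), and 4 of 12 without WT 2D replicates 2, 3 and 4. HES1, a repressor that Notch induces, rose 10.5-fold in ErbB2* cells and 2-fold in WT cells. HEY1, another such target, rose by less in ErbB2* cells (1.66 in ErbB2* and 2.48 in WT cells), a difference that lost its call without WT 2D replicates 2, 3 and 4 (adjusted p = 0.0621) and without WT 3D replicate 3 (adjusted p = 0.0545), and the receptor gene NOTCH1 gave -0.27 in ErbB2* cells and rose by 0.72 in WT cells. DLK2, a non-canonical ligand, was opposite (-0.72 in ErbB2* and 1.26 in WT cells).

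Metabolic and stress lists lay partly below. Among 28 hypoxia and glycolysis genes 4 lay above and 10 below (50%); ADM, the adrenomedullin gene, was above (0.79 in ErbB2* cells, -0.99 in WT cells), and ALDOC, a glycolytic aldolase, fell in ErbB2* cells only (-1.6). Of 22 NRF2 targets, the antioxidant genes, 4 lay above and 8 below (54.5%), although 16 rose in ErbB2* cells and 17 in WT cells and 0 fell in either. HMOX1, heme oxygenase 1, rose 7.72-fold in ErbB2* and 3.46-fold in WT cells, and the detoxifying reductase AKR1B10 rose by 1.12 in ErbB2* and 2.23 in WT cells. Of 24 sterol and fatty acid genes 2 lay above and 7 below (37.5%, against 21.7% of all genes). FASN, fatty acid synthase, was opposite (-0.49 in ErbB2* and 0.44 in WT cells). The median interaction of the list was 0.12, of the other sign than most calls.

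Of 34 interferon response genes 1 lay above and 8 below, a share of 26.5%, near the 21.7% of all genes tested. Their median interaction, 0.09, was again of the other sign. The calls included the chemokine gene CXCL10, which fell in ErbB2* cells (-1.77, log2), and OAS2, an RNA sensor, which fell there too (-1.24); both were below background on every WT array. IFITM1 fell in both lines (-2.28 in ErbB2* and -0.92 in WT cells). Of 4 leukocyte markers tested, 2 lay below, CD14 and CD68, and none above (50%, against 21.7% of all genes). CD14 was lower in 3D in ErbB2* cells (median 10.02 in 3D and 10.62 in 2D). CD68 instead was higher in 3D in WT cells (median 10.16 in 3D and 9.32 in 2D). It lost its call with the mean over probes (adjusted p = 0.385, limma). The summed level of the list was 11.13 to 11.32 (log2) in ErbB2* 3D, 11.18 to 11.56 in ErbB2* 2D, 11.02 to 11.30 in WT 3D and 9.94 to 10.36 in WT 2D. LYZ and CSF1R, also tested, were detected in every group and did not pass. ITGAM, a leukocyte marker, was not detected, PTPRC was detected on 1 array, and the part of such cells was not tested. Among BCL2 family genes 4 of 16 lay above and 1 below (31.2%, against 21.7% of all genes). BCL2L1, an inhibitor of apoptosis, was opposite (0.42 in ErbB2* and -0.65 in WT cells). So was BAX, which promotes apoptosis (0.41 in ErbB2* and -0.58 in WT cells).

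Cell division genes fell in both lines, and few passed the interaction test. Of 37 mitosis and spindle genes 34 fell in ErbB2* cells and 35 in WT cells, and 2 lay above and 2 below (10.8%, against 21.7% of all genes). The number called was 10 without WT 2D replicates 1, 5 and 6, 1 without replicates 2, 3 and 4, 7 without WT 2D replicate 5 or ErbB2* 2D replicate 6, and 8 without WT 2D replicate 6. Their median response was -0.77 in ErbB2* cells and -0.72 in WT cells. Of 34 DNA replication genes 28 fell in ErbB2* cells and 27 in WT cells, and 2 lay above and 3 below (14.7%, against 21.7% of all genes). The count was 10 in all without WT 2D replicates 1, 5 and 6. It was 3 without replicates 2, 3 and 4 or without WT 3D replicate 3. Median scaling left 0 above and 3 below. FOXM1, a transcription factor of mitotic genes, gave -0.06 in ErbB2* cells (adjusted p = 0.838) and fell in WT cells (-0.99), and its interaction missed the threshold with arrays scaled by their median (adjusted p = 0.0541) and without WT 2D replicates 2, 3 and 4 (adjusted p = 0.132). Of 32 oxidative phosphorylation genes 0 lay above and 3 below (9.38%), and of 27 MYC targets 1 above and 3 below (14.8%). Among 17 MHC and antigen processing genes 2 lay above and 1 below (17.6%). Each share lay under the 21.7% of all genes. These counts rested on which arrays entered and on the processing. Without WT 2D replicates 1, 5 and 6, 9 MYC targets (4 above and 5 below) and 6 MHC genes (4 above and 2 below) passed, and without replicates 2, 3 and 4 each list, like oxidative phosphorylation, had 1. The oxidative phosphorylation count was also 1 without ErbB2* 2D replicate 2, WT 3D replicate 2 or WT 2D replicate 2, and 6 without ErbB2* 3D replicate 3. Without background correction 7 mitosis and 6 oxidative phosphorylation genes passed. In the deposited values 7 and 5 passed, with or without WT 3D replicate 5. With the replicate number as a block 1 oxidative phosphorylation gene passed, and under median scaling 1 MHC gene. A test that misses the threshold does not show equal responses.

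**Figure D4:**
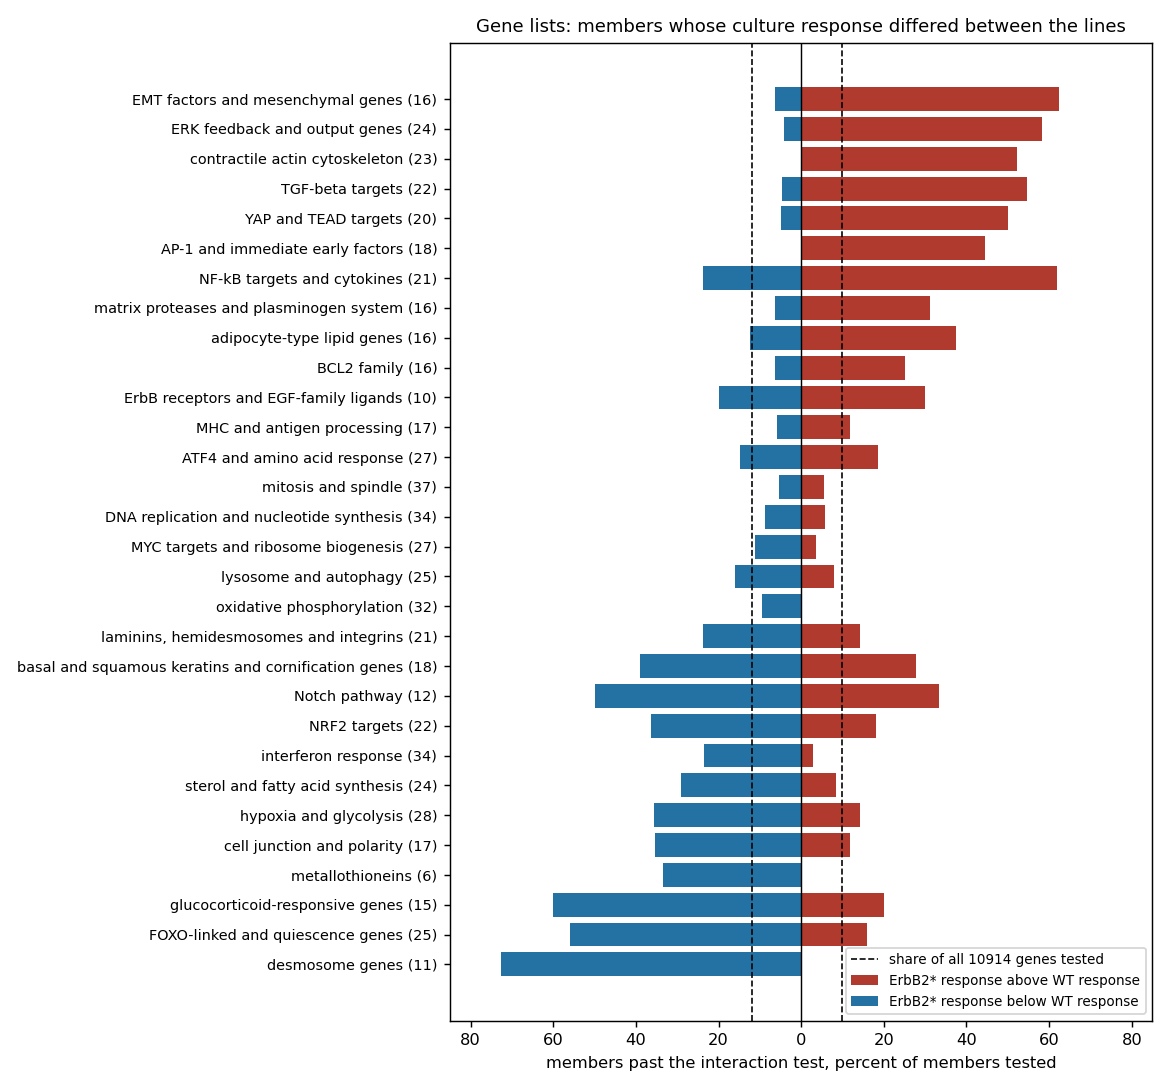
Share of the tested members of each gene list (number tested in brackets) whose ErbB2* response lay above (right) or below (left) the WT response in the interaction test, with the share over all 10914 genes as dashed lines (9.83% above, 11.9% below). EMT, ERK, YAP and TGF-beta lists extend to the right, and desmosome, FOXO and glucocorticoid lists to the left.

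An interaction can arise because the lines drew apart in 3D or because they came together. Of the 2367 genes, 1006 differed between the lines in 3D but did not pass in 2D, 635 the reverse, 272 in both cultures with the same sign and 275 in both with opposite signs, and 179 passed in neither. Over all 10914 genes tested these counts were 1873, 1378, 889, 275 and 6499, in the same order. Genes with opposite signs in the 2 cultures are ones that the interaction test selects. The difference between the lines was wider in 3D than in 2D for 62.0% of the 2367 genes, against 55.2% of all genes tested. CXCL8 is of the first kind, with ErbB2* over WT differences of 4.39 in 3D and 0.10 in 2D, and KRT15 likewise with -3.91 in 3D and 0.29 in 2D. The reverse kind holds SCG5 (0.34 in 3D and -4.03 in 2D), THBS1 (-0.04 in 3D and -2.67 in 2D), CCN1 (-0.28 in 3D and -2.04 in 2D) and KLF9 (-0.21 in 3D and 1.54 in 2D). Genes whose line difference changed sign include TXNIP (-2.45 in 3D and 1.47 in 2D), PLAU (1.36 in 3D and -1.79 in 2D), F3 (1.68 in 3D and -1.51 in 2D) and MAOA (-1.16 in 3D and 2.09 in 2D). CDH1 differed with the same sign in both cultures, by -3.30 in 3D and -1.05 in 2D.

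**Figure D5:**
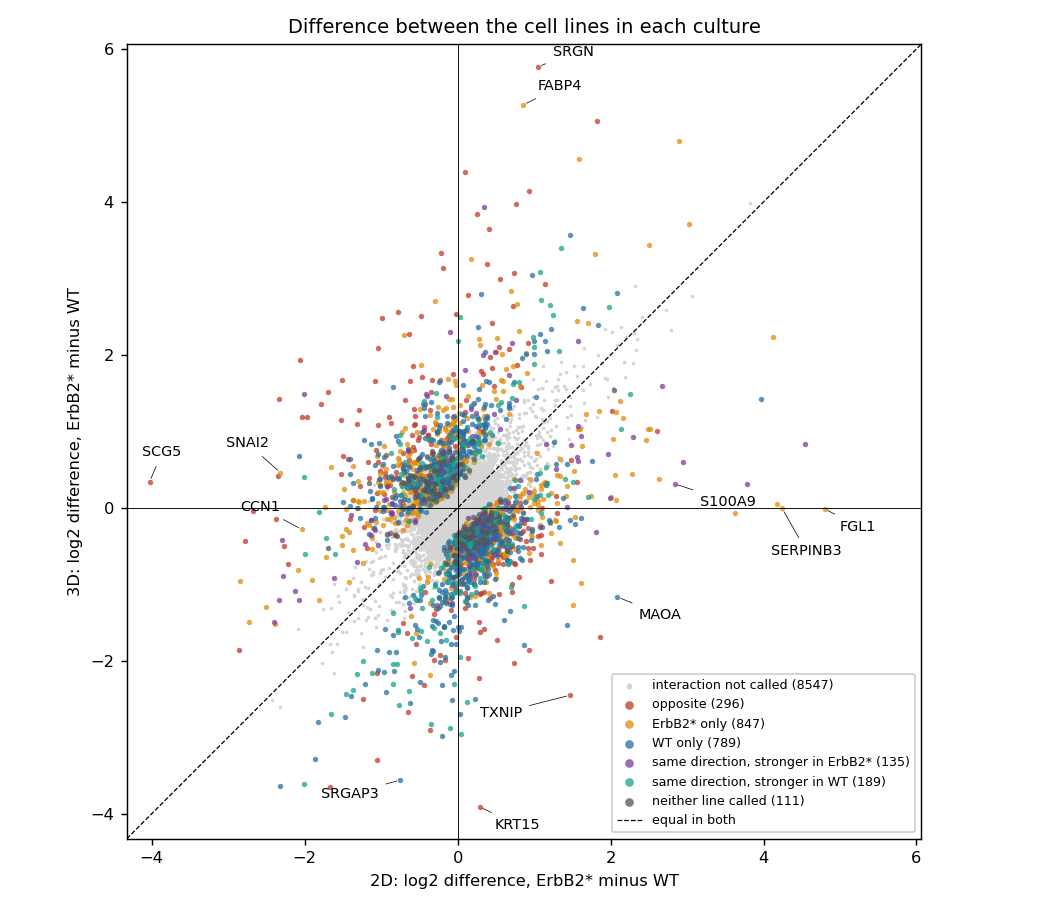
Log2 difference between ErbB2* and WT cells in 3D (vertical) against 2D (horizontal) for 10914 genes, 1 point a gene, coloured by class of culture response. SRGN, FABP4 and KRT15 lie near the vertical axis, FGL1, SERPINB3, SCG5 and SNAI2 near the horizontal axis, and TXNIP and MAOA at the lower right, where the sign changes with culture.

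WT 3D replicate 5 was compared with these classes through its deposited column. Its value lay nearer the mean of the other WT 3D arrays than that of WT 2D in 257 of the 296 opposite genes (86.8%) and 677 of the 789 WT-only genes (85.8%). The same held for 187 of the 189 genes (98.9%) that moved the same way but more in WT cells, and for 123 of the 135 (91.1%) that moved more in ErbB2* cells. All these classes were selected for a difference between the other WT 3D arrays and WT 2D. The share over all genes tested was not computed, so the shares have no baseline. In SRGN the array had 7.82, within the 7.66 to 7.82 of the other WT 3D arrays, and in KRT15 9.81, against 9.81 to 9.97. In CXCL8 and CXCL1, among others, it lay nearer WT 2D. Differences were smaller on the deposited scale: 66 of the 145 named genes with a called interaction had one over 1.5 times smaller there, and 144 were still called.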

How the data were processed

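RNA of 23 samples was hybridised to Illumina bead arrays. The deposited tables hold, per the file headers, an average signal intensity and a detection p-value for each of 48803 probes; the labels do not name the scanner software. The authors also deposited log2 values of the same arrays, whose normalisation is not stated; they follow the scanner signals in rank on 22 arrays, with a slope of 0.948 to 1.02, so scale and direction are known and the centring is not.

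Intensities of 22 arrays were background-corrected with the detection p-values and quantile-normalised (limma 3.58.1 neqc, offset 16, in R 4.3.3, with tables read by data.table, version 1.17.8). The number of arrays limits the precision. Probes with a detection p-value under 0.05 on at least 5 arrays were kept (715 were detected on exactly 5 arrays, 957 on exactly 4 and left out). Of all probes 28098 had 1 gene symbol in the platform annotation, 13 several and 20692 none. The brightest passing probe stood for each symbol, and 2875 of the 10914 genes had more than 1. A model of 4 group means with 18 residual degrees of freedom was fitted (lmFit, eBayes), two-sided, with Benjamini-Hochberg adjustment over all genes. A gene below background on every array of a group has only a bound there: the bright group's mean against, per array, the higher of the lowest detected signal and the gene's own.

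On simulated data of 10914 genes, 67, 67 and 66 genes were changed by 0.5, 1 and 2 log2 units. The interaction test recovered 11.9%, 61.2% and 100% of them, with 7 false calls. Noise was drawn independently for each array, without the sets seen among the WT 2D arrays, and far fewer genes changed than were called in the real data. The simulation therefore does not measure false calls on these arrays. No 2 arrays held identical values. Named genes were the largest interactions in each class detected on at least 50% of the arrays of each group (6 of each sign for opposite genes, 3 for each line and sign, 2 for genes moving the same way), the 3 brightest of each sign below background in a group, up to 4 members of each list, and ERBB2. The genes, lists and alternatives were chosen with earlier results of these data known. Figures were drawn with matplotlib 3.10.9. Same-numbered samples did not deviate together (correlations of -0.186 to 0.172 over 30 pairs, 1 over 0.1), so numbers were not taken as pairs.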

Additional observations from a re-analysis of the deposited data

Results flagged for a closer look

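The difference between the lines in their response to 3D culture, tested as an interaction, passed for 2367 genes.

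Single arrays stood apart from the others of their group (Dixon's criterion) in 28 of 584 combinations of named gene and group (4.79%); chance gives about 1 in 20. On the log2 scale, in ErbB2* 3D they were ADM at 10.47 and MAP1LC3B at 10.67 on replicate 6, ANGPTL4 at 13.32, LIMA1 at 8.95 and NOP2 at 11.23 on replicate 2, CD14 at 9.62 and VASN at 10.25 on replicate 1, and CXCL2 at 9.10 and DSG3 at 7.43 on replicate 5. In ErbB2* 2D they were CKMT1B at 6.81 and LIMA1 at 7.24 on replicate 3, GPM6B at 7.09 and TSPAN5 at 5.93 on replicate 4, ODC1 at 12.05 and SCNN1B at 8.57 on replicate 5, and FAP at 7.66 on replicate 6. In WT 3D they were CD74 at 6.07, LAMB3 at 12.20, S100A9 at 10.09, SCG5 at 8.99 and ULK1 at 10.42 on replicate 1, BAX at 9.50 on replicate 2, and S100A8 at 9.83 and SNAR-A1 at 6.58 on replicate 3. In WT 2D they were COL1A1 at 5.51 and KLF9 at 8.16 on replicate 4, DSP at 9.07 on replicate 6 and TXNRD1 at 9.82 on replicate 1. WT 3D replicate 1 held 5 of the 28.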

How the results depend on the processing

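The interaction count was 2367. It was 2002 (without WT 3D replicate 3) to 2497 (without WT 2D replicate 6) when arrays were left out in turn, with 901 to 1137 genes above and 1101 to 1374 below. In the same refits the opposite class held 249 to 329 genes, ErbB2* only 734 to 891, WT only 637 to 873, the same direction but stronger in ErbB2* 99 to 145 and in WT 162 to 196, and neither line 82 to 118. Median scaling gave 1924 genes, with 522 above, 76 moving the same way but more in ErbB2* cells and 95 more in WT cells; the cause was not tested. Without WT 2D replicates 1, 5 and 6, 553 genes were opposite and 1205 were called in WT only, of 3200. Without WT 2D replicates 2, 3 and 4, 56 were called in neither line, of 1793. With the replicate number as a block, 2173 genes passed. Same-numbered samples did not deviate together, but whether the numbers pair the samples was not established. The deposited values gave 2758 genes on 23 arrays and 2579 on 22. Omitting background correction gave 2584, normexp alone 2508, trend and robust moderation 2504, the mean over probes 2334, no detection filter 2104 of 18852 genes tested and a stricter filter 2268 of 8567. None of the 145 named genes with a called interaction reversed in any of these alternatives where it had a value. Under the stricter filter 129 of them had one, and the others could not be compared. Calls were lost for 10 of them under median scaling, 17 without WT 2D replicates 2, 3 and 4 and 6 with the mean over probes. Genes below background in a group have a bound and no measured fold there.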
